A study of Mus musculus with 4 samples.

Results

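The clustered protocadherins of the mouse lie in 3 neighbouring gene clusters, alpha, beta and gamma, on the plus strand of chromosome 18. They were taken from the deposited table as every row whose gene name carries a clustered protocadherin name, which gave 23 of the 23537 rows. These are 1 row of the alpha cluster (*Pcdha4*), 21 rows of the beta cluster (*Pcdhb2* to *Pcdhb22*) and 1 row of the gamma cluster (*Pcdhga9*). The rule reads gene names and no measured value.

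Clustered protocadherins are cadherin-like adhesion proteins of the cell surface, best known from neurons, where each cell expresses its own combination and uses it to tell its own processes from those of other cells. In the alpha and gamma clusters each variable first exon has its own promoter and is spliced to constant exons shared by the whole cluster, whereas a beta gene is read from its own promoter without such shared exons. Promoter choice depends on DNA methylation and on the binding of the insulator protein CTCF and of cohesin, which bring a promoter into contact with distant enhancers. MBD4, the protein targeted in the mutant cells, binds methylated CpG sites and excises the thymine left when a methylated cytosine is deaminated.

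Total RNA was sequenced from primary mouse embryonic fibroblasts (MEFs) with the genotype *Mbd4*−/− (KO, 2 libraries) or *Mbd4*+/+ (WT, 2 libraries). Both genotypes carry the strain label C57BL/6, and both came from embryos of day 12.5 post coitum and were harvested as subconfluent cultures. Ribosomal RNA was removed and strand-specific libraries were made, and the libraries held 39108275 to 47567835 counts. The methods call the 2 RNA samples of a genotype independent but do not say whether they came from different embryos or cultures, so the p-values reflect how far these samples vary, and that variation may be technical.

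*Mbd4* itself had 7.85 and 7.33 CPM (counts scaled to a library of 1000000) in KO MEFs, against 14.8 and 15.4 CPM in WT MEFs, so its transcript was lower in the KO cells but still present. Its log2-ratio of KO over WT (the log2 fold change) was -0.99, with a standard error (SE) of 0.11 and an adjusted p of 2.8e-06 in the quasi-likelihood test of edgeR. The sources used here do not say which part of the gene the mutant allele lacks. Summed CPM of 10 fibroblast markers was 13275 and 14394 in KO MEFs, against 23445 and 21118 in WT MEFs, with 1 marker higher and 5 lower, where 34.3% of all tested genes were higher and 32.5% lower. Summed CPM of the 9 matched neuronal markers was 34.4 and 33.1 in KO MEFs, against 35.0 and 36.8 in WT MEFs. The neuronal genes *Snap25*, *Nefl*, *Nefm*, *Dcx*, *Elavl3* and *Elavl4* had at most 6 counts in any library, while *Syt1* and *Stmn2* rose and *Tubb3* fell. Markers of glia and neural crest summed to 2.86 and 3.03 CPM in KO MEFs against 1.47 and 2.17 CPM in WT MEFs, and those of epithelium to 3.30 and 2.91 CPM against 0.692 and 1.27 CPM. Markers of endothelium summed to 0.294 and 0.388 CPM in KO MEFs against 0.536 and 0.317 CPM in WT MEFs, and those of blood to 1.66 and 1.70 CPM against 2.79 and 2.10 CPM. The part of these differences in the protocadherin results was not tested.

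Transcripts of the beta cluster were more abundant in KO MEFs, and those of the gamma cluster were more abundant by a smaller factor. The 21 beta genes together had 268.2 and 271.9 CPM in KO MEFs, against 100.5 and 115.7 CPM in WT MEFs, which is 2.50 times as much. The gamma row had 139 and 150.4 CPM in KO MEFs, against 93.1 and 98.9 CPM in WT MEFs, 1.51 times as much. The alpha row had few counts, with 5 and 10 counts in KO MEFs and 4 and 14 counts in WT MEFs. In bulk RNA a larger number of expressing cells and more RNA per expressing cell cannot be told apart.

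At an adjusted p of 0.05 (edgeR's quasi-likelihood test, Benjamini-Hochberg adjustment over 15538 genes), 14 of the 20 tested members were higher in KO cells and 1 was lower. Of the tested genes as a whole, 34.3% were higher and 32.5% lower, since the genotypes differed at 66.8% of the tested genes in either direction. The share of members higher was 70%, and their median log2 fold change was 1.23, against 0.02 over all tested genes. A further 5 members did not pass the test, and *Pcdhb6*, *Pcdhb8* and *Pcdhb10* had too few counts to be tested. Of all 23 rows, 18 had both KO libraries above both WT libraries and 2 (*Pcdhb11* and *Pcdhb13*) had both below. The shares of all 23537 rows arranged in these ways were 34.3% and 31.5%. When the adjusted p had to be under 0.01 and the log2-ratio beyond 2 in size, the members higher in KO cells were *Pcdhb15*, *Pcdhb3* and *Pcdhb2*, 3 of 20, where 5.79% of all tested genes met these limits. In the other direction 3.15% of all tested genes met them and 0 members did, in edgeR and in DESeq2, and at an unadjusted p under 0.05 edgeR had 1 member lower and DESeq2 had 0.

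**Figure D1:**
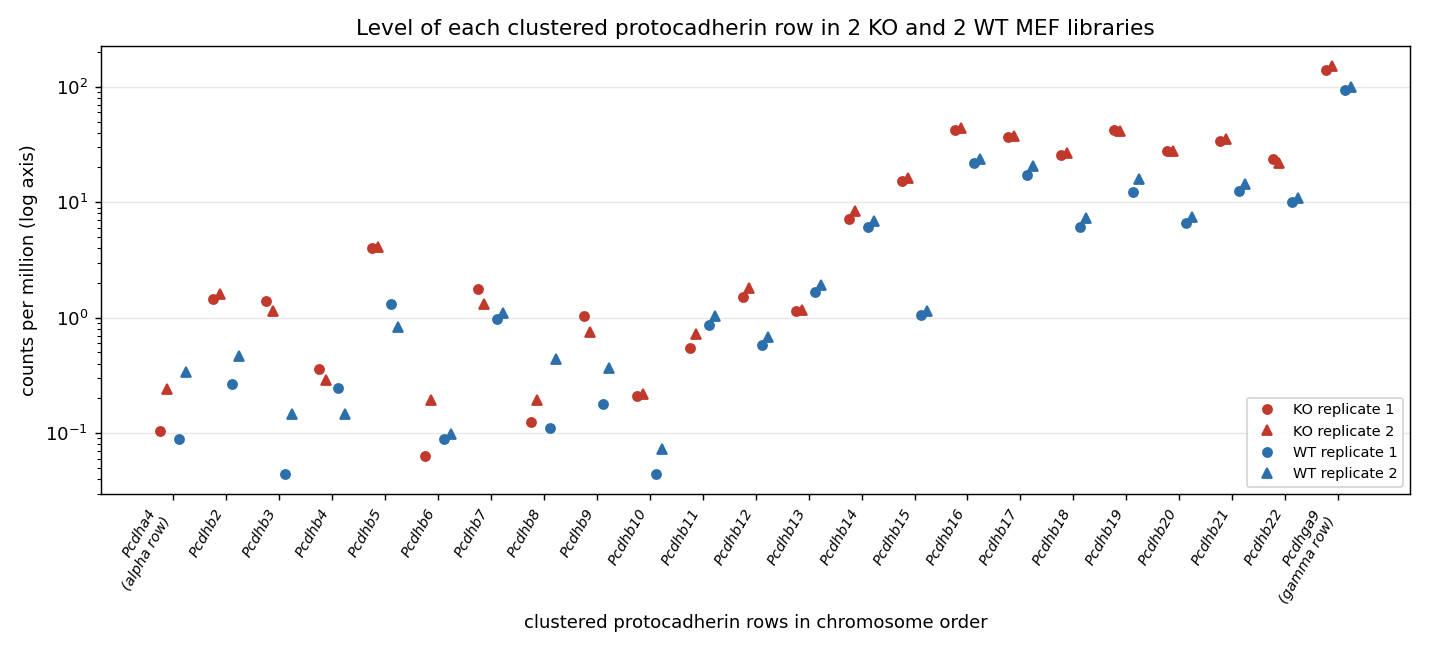
CPM (log axis) of each of the 23 clustered protocadherin rows in chromosome order, with 1 point per library, KO in red on the left of each pair and WT in blue on the right. In 18 of the 23 rows both KO points lie above both WT points, among them the 8 genes from *Pcdhb15* to *Pcdhb22* and the gamma row. *Pcdhb11* and *Pcdhb13* have both KO points below. Of all 23537 rows, 34.3% had both KO libraries above and 31.5% had both below.

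The 21 beta genes analysed here, which do not include *Pcdhb1*, span 37454494 to 37681073 on chromosome 18 of mm9. The first of them starts 107182 bases beyond the end of the alpha row, and the last ends 152915 bases before the gamma row. No beta gene overlaps another annotated gene. The distances between neighbouring beta genes run from 39 bases to 43244 bases, and the widest 2, the other being 22451 bases, part the genes into runs of 7 (*Pcdhb2* to *Pcdhb8*), 6 (*Pcdhb9* to *Pcdhb14*) and 8 (*Pcdhb15* to *Pcdhb22*). This division was made after the values were seen and is used only to order the description.

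The run nearest the gamma cluster was drawn after the values were seen, and all 8 of its genes rose. This is 100%, where 34.3% of all tested genes were higher. The 8 genes had log2 fold changes of 0.91 to 3.84 and a median of 1.47. Together they had 247.4 and 249.9 CPM in KO MEFs, against 88.0 and 101.5 CPM in WT MEFs. They made up 92.2% and 91.9% of all beta counts in KO MEFs, against 87.5% and 87.7% in WT MEFs. The counts of the 21 beta genes thus came mostly from this run in both genotypes.

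*Pcdhb15* (ENSMUSG00000047033), a single-exon gene from 37633200 to 37635994, had the largest log2 fold change of the tested members with all 4 libraries, although *Pcdhb3* was above it without KO replicate 2 (3.80 for *Pcdhb15* and 3.85 for *Pcdhb3*) and without WT replicate 2 (3.87 and 4.71). It had 730 and 666 counts in KO MEFs, against 47 and 47 counts in WT MEFs, or 15.4 and 16.2 CPM against 1.05 and 1.15 CPM. This is a log2-ratio KO/WT of 3.84 (SE 0.15, edgeR adjusted p = 9.4e-11). The gene thus took 5.73% and 5.94% of the beta counts in KO MEFs, against 1.04% and 0.992% in WT MEFs. Its neighbours in the same run did not share a change of this size. *Pcdhb16*, which begins after a gap of 1427 bases, had 42.1 and 43.9 CPM in KO MEFs, against 21.97 and 23.9 CPM in WT MEFs (log2-ratio KO/WT 0.91, SE 0.08, edgeR adjusted p = 2.4e-07). On the other side, *Pcdhb14* had 7.15 and 8.44 CPM in KO MEFs, against 6.12 and 6.91 CPM in WT MEFs. The KO libraries of *Pcdhb14* both lay above the WT libraries, but the difference did not pass the test (log2-ratio KO/WT 0.26, SE 0.14, edgeR adjusted p = 0.116).

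*Pcdhb18* and *Pcdhb20* rose by almost the same factor. *Pcdhb20* (37663926 to 37667476), which the annotation lists as a pseudogene, had 1327 and 1142 counts in KO MEFs, against 296 and 308 counts in WT MEFs (log2-ratio KO/WT 1.98, SE 0.10, edgeR adjusted p = 1.1e-09). *Pcdhb18* had 1221 and 1102 counts in KO MEFs, against 273 and 298 counts in WT MEFs (log2-ratio KO/WT 1.97, SE 0.11, edgeR adjusted p = 2.4e-09). Between them lies *Pcdhb19*, another adhesion gene of the cluster, which ends 144 bases before *Pcdhb20*. It had 2019 and 1707 counts in KO MEFs, against 554 and 646 counts in WT MEFs (log2-ratio KO/WT 1.58, SE 0.10, edgeR adjusted p = 1.4e-08).

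The last 2 genes of the cluster, *Pcdhb21* and *Pcdhb22*, are only 39 bases apart in the annotation. *Pcdhb21* had 1614 and 1448 counts in KO MEFs, against 563 and 588 counts in WT MEFs (log2-ratio KO/WT 1.36, SE 0.09, edgeR adjusted p = 1.4e-08). *Pcdhb22* had 1118 and 894 counts in KO MEFs, against 453 and 448 counts in WT MEFs (log2-ratio KO/WT 1.10, SE 0.10, edgeR adjusted p = 2.7e-07). *Pcdhb17*, which had the highest level per length of the beta cluster in both genotypes, was among the members with the smaller rises. It had 1729 and 1535 counts in KO MEFs, against 772 and 843 counts in WT MEFs (log2-ratio KO/WT 0.96, SE 0.09, edgeR adjusted p = 5.7e-07).

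**Figure D2:**
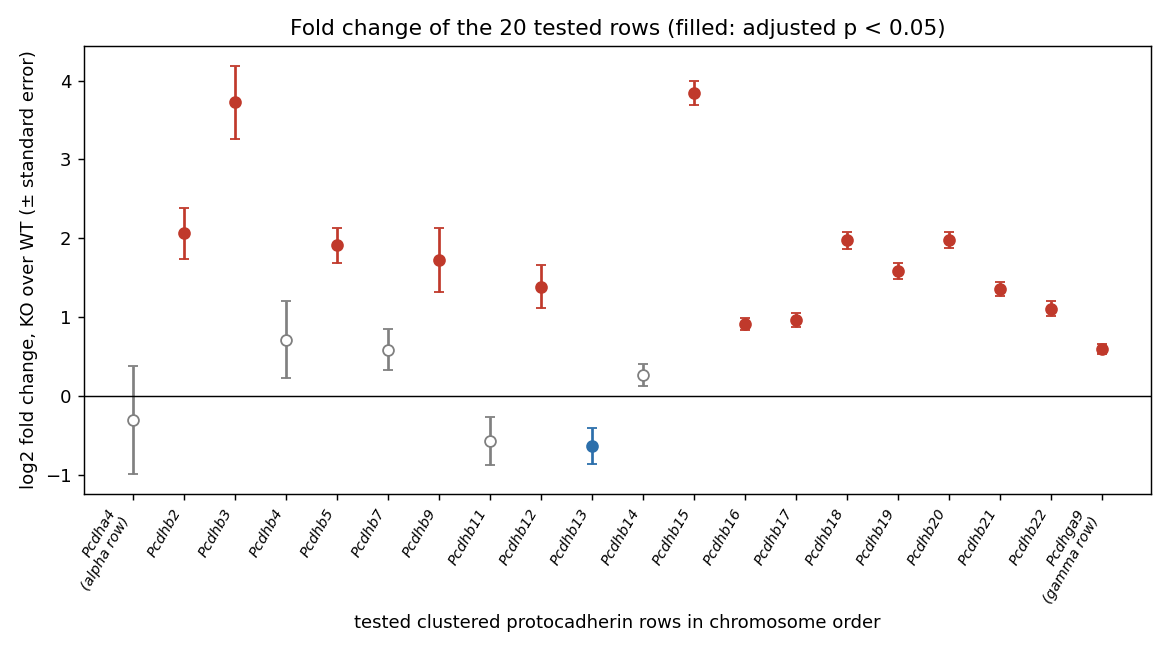
Log2 fold change of KO over WT for the 20 tested rows in chromosome order, with bars of 1 standard error. Filled points passed an adjusted p of 0.05 in edgeR (red higher, blue lower in KO) and open points did not. *Pcdhb15* and *Pcdhb3* stand highest at 3.84 and 3.72, and *Pcdhb13* is the filled point below 0.

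In the run nearest the alpha cluster, 3 of the 5 tested genes rose (*Pcdhb2*, *Pcdhb3* and *Pcdhb5*), all from a low level in WT cells. This is 60%, where 34.3% of all tested genes were higher. *Pcdhb3*, from 37460453 to 37464239, had 66 and 47 counts in KO MEFs, against 2 and 6 counts in WT MEFs. Its log2-ratio of 3.72 (SE 0.46, edgeR adjusted p = 7.9e-06) rests on 8 WT counts in all and is less precise than that of *Pcdhb15*. It was 4.71 without WT replicate 2 and 3.09 without WT replicate 1. *Pcdhb2*, the first of the beta genes analysed here, had 69 and 66 counts in KO MEFs, against 12 and 19 counts in WT MEFs. Its log2-ratio KO/WT was 2.06 (SE 0.32, edgeR adjusted p = 7.1e-05). *Pcdhb5* had the most counts of this run, with 192 and 169 counts in KO MEFs and 59 and 34 counts in WT MEFs (log2-ratio KO/WT 1.91, SE 0.22, edgeR adjusted p = 5.1e-06). The groups did not overlap for these 3 genes.

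The other genes of this run did not pass the test or were not tested. *Pcdhb7* had 85 and 54 counts in KO MEFs, against 44 and 45 counts in WT MEFs (log2-ratio KO/WT 0.58, SE 0.26, edgeR adjusted p = 0.062). *Pcdhb4* had 17 and 12 counts in KO MEFs, against 11 and 6 counts in WT MEFs (log2-ratio KO/WT 0.71, SE 0.49, edgeR adjusted p = 0.216). Both untested genes of the run overlapped between genotypes. *Pcdhb6* had 3 and 8 counts in KO MEFs, against 4 and 4 counts in WT MEFs, and *Pcdhb8* had 6 and 8 counts against 5 and 18 counts. A difference in these genes was not detectable at this depth.

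In the middle run 2 genes were higher, 1 lower and 2 not past the test of the 5 tested, with a median log2 fold change of 0.26. These shares, 40% higher and 20% lower, compare with 34.3% and 32.5% of all tested genes. Its summed level was 11.6 and 13.1 CPM in KO MEFs, against 9.47 and 10.96 CPM in WT MEFs. *Pcdhb12* had 72 and 74 counts in KO MEFs, against 26 and 28 counts in WT MEFs (log2-ratio KO/WT 1.38, SE 0.27, edgeR adjusted p = 0.00047). *Pcdhb9* rose as well, with 49 and 31 counts in KO MEFs and 8 and 15 counts in WT MEFs (log2-ratio KO/WT 1.73, SE 0.41, edgeR adjusted p = 0.0019). Without KO replicate 1 the value of *Pcdhb9* was 1.47 and did not pass (adjusted p = 0.0533 from edgeR). *Pcdhb10*, which was not tested, had 10 and 9 counts in KO MEFs, against 2 and 3 counts in WT MEFs.

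*Pcdhb13*, the next gene after *Pcdhb12*, was the only one of the 20 tested members that fell. It had 54 and 48 counts in KO MEFs, against 75 and 78 counts in WT MEFs (log2-ratio KO/WT -0.63, SE 0.23, edgeR adjusted p = 0.027). This call was lost with library totals (adjusted p = 0.0815 from edgeR), in DESeq2 (adjusted p = 0.124), and without KO replicate 1, KO replicate 2 or WT replicate 2 (adjusted p from 0.0541 to 0.138 from edgeR). *Pcdhb11* also had both KO libraries below both WT libraries, with 26 and 30 counts in KO MEFs and 39 and 42 counts in WT MEFs. It did not pass the test (log2-ratio KO/WT -0.58, SE 0.31, edgeR adjusted p = 0.113). *Pcdhb11* and *Pcdhb13* lie on either side of *Pcdhb12*, which rose.

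Per kilobase of exon, the level of the beta genes followed their position in both genotypes, being low toward the alpha cluster and high toward the gamma cluster. The highest level was that of *Pcdhb17*, with 11.3 ± 0.187 CPM per kb in KO cells and 5.78 ± 0.723 CPM per kb in WT cells (SD, n = 2 each). *Pcdhb16* came next at 8.16 ± 0.246 CPM per kb in KO cells and 4.35 ± 0.259 CPM per kb in WT cells. In KO cells *Pcdhb20*, *Pcdhb21* and *Pcdhb22* followed at 7.84, 7.41 and 7.37 CPM per kb, and these 3 differed by less than 2 SD of *Pcdhb22* (0.423). The lowest level in KO cells was that of *Pcdhb6*, with 0.0378 ± 0.0272 CPM per kb, and the lowest in WT cells that of *Pcdhb10*, with 0.0207 ± 0.00709 CPM per kb. *Pcdhb15* ranked 7 of 21 in KO cells at 5.64 ± 0.202 CPM per kb and 10 of 21 in WT cells at 0.393 ± 0.0248 CPM per kb.

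Across the 21 genes, Spearman's rho between the order along the chromosome and the log2 level per kb was 0.72 in KO cells and 0.82 in WT cells (Pearson's r 0.78 and 0.83). The levels in KO and WT cells correlated with a rho of 0.90 (r = 0.90). These are descriptions across genes measured in the same 4 libraries, and genes are not independent replicates. Over the 18 tested beta genes the log2 fold change had no such order, with a rho of -0.05 for position (r = -0.12) and -0.20 for the WT level per kb (r = -0.26), although the second pair shares the WT counts. The gradient in level was thus present in both genotypes, and the size of the change did not follow it.

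**Figure D3:**
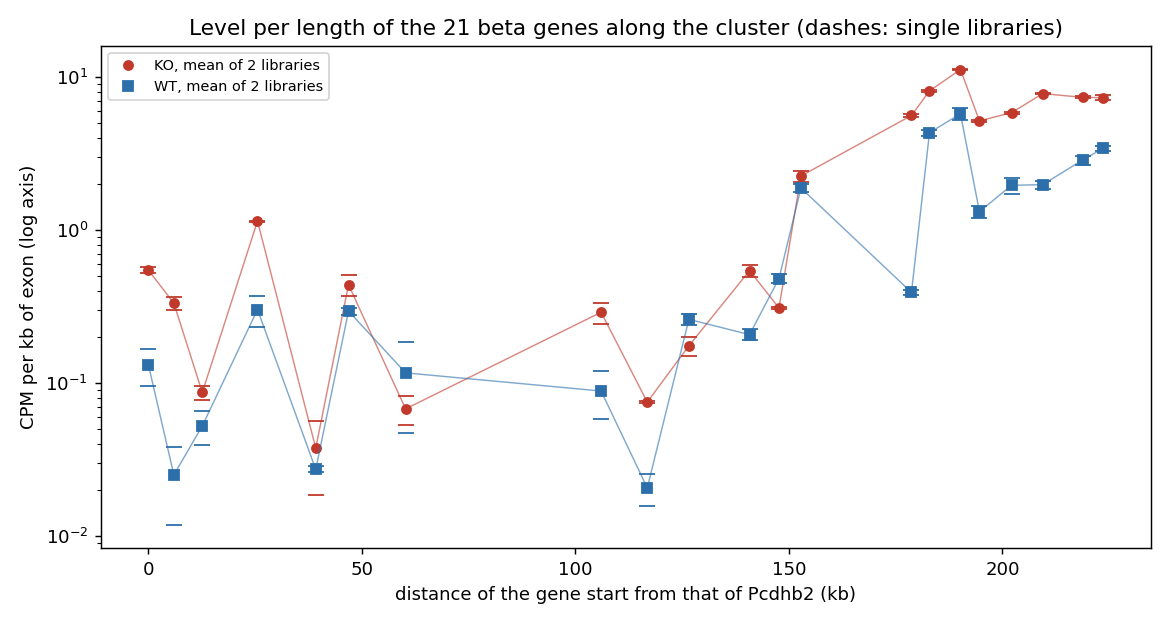
Level of the 21 beta genes in CPM per kilobase of exon (log axis) against the distance of each gene's start from that of *Pcdhb2* in kilobases, with KO means in red, WT means in blue and dashes for the single libraries. Levels climb toward the right in both genotypes, and *Pcdhb15* is the point at the start of the last run where the WT value (0.393) lies farthest below the KO value (5.64).

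The make-up of the beta transcripts also differed between the genotypes. *Pcdhb16* and *Pcdhb17* held 15.7% and 16.1%, and 13.6% and 13.7%, of the beta counts in KO MEFs, against 21.9% and 20.7%, and 17.1% and 17.8%, in WT MEFs. *Pcdhb14* held 2.67% and 3.11% of the beta counts in KO MEFs, against 6.09% and 5.97% in WT MEFs. Shares of *Pcdhb18* (9.58% and 9.83% in KO MEFs against 6.06% and 6.29% in WT MEFs) and *Pcdhb20* (10.4% and 10.2% against 6.57% and 6.50%) ran the other way. Shares within a cluster sum to 100, so a larger share of 1 gene lowers those of the others.

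The gamma row (*Pcdhga9*, ENSMUSG00000023036) covers 37833989 to 38001527 and does not stand for a single isoform. In the annotation its identifier carries another name of the cluster, *Pcdhgc5*. There it holds 10 transcripts with 10 different first exons, all of which share an exon with another transcript, over 28980 exonic bases. The row therefore pools variable exons of the cluster with the constant exons, which encode the shared cytoplasmic domain. The row also overlaps *Gm16882* and *SNORA40* in the annotation. It had 6595 and 6199 counts in KO MEFs, against 4168 and 4053 counts in WT MEFs, the most of any member. The log2-ratio KO/WT was 0.59 (SE 0.06, edgeR adjusted p = 2.4e-06), the smallest among the 14 members that rose. Which first exons carried the rise cannot be told from this row, and the single gamma and alpha isoforms, including the C-type members, were not analysed here.

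The alpha row (*Pcdha4*, ENSMUSG00000007440) is of the same kind, with 10 transcripts and 10 first exons between 37089939 and 37347311, 9 of which share an exon. At 0.105 and 0.243 CPM in KO MEFs and 0.0893 and 0.342 CPM in WT MEFs, its groups overlapped and it did not pass the test (log2-ratio KO/WT -0.31, SE 0.68, edgeR adjusted p = 0.708). The direction of its value turned when KO replicate 1 (0.20) or WT replicate 2 (0.87) was left out. The row also overlaps *Gm10544*, *Gm10545* and *Pcdha3* in the annotation, which names its identifier *Pcdha11*. Of its stretches of 50 bases, the read length, 90.2% occurred once in mm9. How reads shared with other genes were counted is not known here, so few counts need not mean few transcripts. A difference in the alpha cluster was not detectable with these counts.

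Of all clustered protocadherin counts, the beta genes made up 65.9% and 64.4% in KO MEFs, against 51.9% and 53.8% in WT MEFs. The gamma row made up 34.1% and 35.6% in KO MEFs, against 48.1% and 46.0% in WT MEFs. In KO cells the beta sum was 270 ± 2.63 CPM and the gamma sum 145 ± 8.23 CPM, and in WT cells they were 108 ± 10.7 CPM and 96.0 ± 4.15 CPM (SD, n = 2 each). An exact permutation test of 2 against 2 libraries cannot give a two-sided p below 0.333, so these sums were given no test, and the difference between the beta and gamma folds was not tested.

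**Figure D4:**
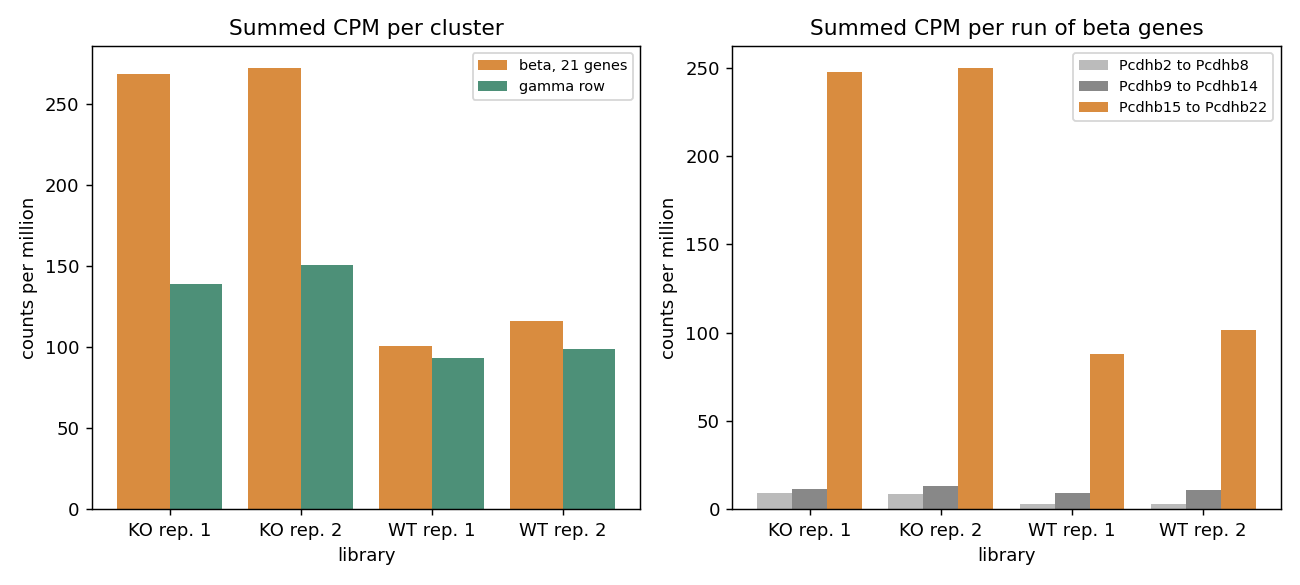
Left, summed CPM of the 21 beta genes and of the gamma row in each library, KO libraries left of WT libraries. Right, the same sum split into the runs *Pcdhb2* to *Pcdhb8*, *Pcdhb9* to *Pcdhb14* and *Pcdhb15* to *Pcdhb22*. The beta bars reach 268.2 and 271.9 in KO against 100.5 and 115.7 in WT, and the last run alone reaches 247.4 and 249.9 in KO against 88.0 and 101.5 in WT.

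Beta genes are alike in sequence, so reads could be assigned to the wrong copy. Of the 76445 stretches of 50 bases, the read length, in the exons of the 21 genes, 95.0% occurred once in mm9, from 88.0% in *Pcdhb12* to 98.1% in *Pcdhb13*. Only exact matches were counted, so stretches that differ slightly between copies count as occurring once. For *Pcdhb15* and *Pcdhb3*, the members with the largest rises, the shares were 98.1% and 97.1%. Over the 18 tested beta genes the share correlated weakly with the log2 fold change (rho 0.15, r = 0.29), as a description across genes. The sources used here do not say how reads with several matches were treated in the gene counts.

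The promoters of the beta genes were poorer in CpG than most, as read from mm9 over 250 bases before to 50 bases after each annotated start. They held a median of 5 CpG sites (range 2 to 11), against a median of 11 over 22375 protein-coding starts (quartiles 3 and 23). The letters CGCT, the core of the conserved element found upstream of most clustered protocadherin exons, were present on either strand in 21 of 21 beta windows and in 67.5% of all windows. Such a match is a description of the sequence and not a bound site. The number of CpG sites correlated weakly with the log2 fold change over the 18 tested genes (rho -0.19, r = -0.22). Methylation of these windows was not analysed here.

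Among 20 matched genes that shape chromatin or promoter choice at the clusters, 7 were higher in KO cells, 8 lower and 5 not past the test, which is 35% and 40% against 34.3% and 32.5% of all tested genes. The cohesin subunits *Smc3* and *Stag1* rose by log2 fold changes of 0.55 and 0.48. The other listed subunits, named after their values were seen, went both ways. *Stag2* and *Smc1a* were higher, at 0.43 and 0.30, and *Rad21* was lower, at -0.30. The genes that fell included *Wapal*, which releases cohesin from DNA, at -0.77, *Mau2*, which helps to load cohesin, at -0.49, and *Ctcf*, at -0.37. *Ctcf* had 86.1 and 83.7 CPM in KO MEFs, against 111.2 and 108 CPM in WT MEFs (adjusted p = 9.5e-05 from edgeR). *Smchd1* and *Dnmt3b*, known to silence these clusters, were named after their values were seen. They did not pass the test, with log2 fold changes of 0.03 and -0.08. Other listed genes tied to silencing, also named after their values were seen, did pass it. *Dnmt1* was higher, at 0.41 (adjusted p = 3.2e-05 from edgeR). *Trim28* and *Setdb1* were lower, at -0.38 and -0.16 (adjusted p = 9.6e-05 and 0.035 from edgeR). *Dnmt3a* and *Rest*, at 0.13 and -0.06, did not pass.

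Of 21 matched genes whose proteins cleave or bind protocadherins, 4 were higher in KO cells, 12 lower and 5 not past the test, which is 19% and 57.1% against 34.3% and 32.5% of all tested genes. Those higher included *Marcks*, a substrate of protein kinase C at the plasma membrane (log2 fold change 1.03), *Cyfip2* (1.12) and *Abi2* (0.33), the last 2 being subunits of the WAVE complex, which drives actin branching. Those lower included *Ptk2b*, the kinase PYK2 that binds the protocadherin cytoplasmic domain. It had 1.85 and 2.09 CPM in KO MEFs, against 11.4 and 9.59 CPM in WT MEFs (log2-ratio KO/WT -2.42, edgeR adjusted p = 1.8e-08). *Cyfip1* (-0.87) and *Abi1* (-0.78) fell, opposite to their paralogues *Cyfip2* and *Abi2*. *Cyfip2* had a low level, with 3.16 and 2.67 CPM in KO MEFs against 1.23 and 1.47 CPM in WT MEFs. Other WAVE subunits on the list were named after their values were seen. *Wasf2* (-0.89) and *Nckap1* (-0.64) fell, and *Wasf1* (0.41) did not pass the test.

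Genes beside or between the clusters did not rise as a block. Of 14 tested, 2 were higher, 3 lower and 9 not past the test, which is 14.3% and 21.4% against 34.3% and 32.5% of all tested genes, with a median log2 fold change of 0.01. *Fchsd1*, an adaptor protein of membrane and actin, had 9.83 and 10.3 CPM in KO MEFs, against 5.001 and 4.03 CPM in WT MEFs (log2-ratio KO/WT 1.16, edgeR adjusted p = 7.1e-06). *Taf7*, a subunit of the general transcription factor TFIID, rose by 0.31 on the log2 scale (adjusted p = 0.034 from edgeR), a call that was lost in DESeq2, with no filter on low counts, and without KO replicate 1, KO replicate 2 or WT replicate 2. *Hars*, the histidyl-tRNA synthetase, fell by 0.68, *Wdr55* by 0.45 and *Ndufa2*, a subunit of respiratory complex I, by 0.31. The number of neighbours higher ranged from 1 to 5 over the alternatives, with 5 under library totals.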

How the data were processed

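The deposited table holds raw counts per gene, which the authors obtained with HTSeq 0.5.4p3 on Ensembl 67 genes from single-end reads of 50 bases aligned to mm9 with TopHat2 and Bowtie (base calls with CASAVA 1.8.2). Its 8 other value columns hold normalized values and the authors' own DESeq comparison and were not used. The sources used here do not say which strand setting the counting used.

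The test was the quasi-likelihood F-test of edgeR 4.0.16 (R 4.3.3) on TMM-scaled counts, with a model that held genotype alone. It ran on the 15538 genes that filterByExpr kept (7999 were removed), and p-values were adjusted over all of these by Benjamini-Hochberg, with a threshold of 0.05. CPM uses the TMM-scaled library totals. A standard error is the size of the log2-ratio over the root of its F. Replicates differed by more than sampling noise (chi-square per gene 4.54 in KO and 9.05 in WT), and the common biological coefficient of variation was 0.0597. On simulated data with 15197 genes, the test recovered 61 of 67 genes given a log2-ratio of 1. It recovered 67 of 67 given 2 and 66 of 66 given 3, with 6 false calls. Only these small sets were given a change there, whereas 66.8% of the tested genes differed between the genotypes. The error rate with so many genes differing was not tested.

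Genes were placed with the GENCODE annotation of mm9 (Ensembl 65), which holds 23393 of the 23537 identifiers. Stretches of 50 bases were matched to both strands of the whole genome, and only exact matches were counted.

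The members and gene lists were chosen with earlier results of these data known. The rule for named genes took the C-type members, the 3 members with the most counts of each group, up to 10 with the largest rise and 10 with the largest fall among those past the test, and members not past it among the 10 with the most counts. Of each list at most 3 genes per direction were named by adjusted p, apart from those said to be named after their values were seen. A gene that this rule names is not reported here. The values of the other members were added after they were seen, so that all 23 are given. Separate sums for the gamma A, B and C groups were planned but could not be formed, because the table used holds 1 gamma row, and *Pcdhb1* was not analysed here. *Atf7ip* matched more than 1 row and was left out. The alternatives were other scalings, other filters, DESeq2 1.42.0, limma-voom 3.58.1, a replicate block, stricter limits and leaving out each library.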

Additional observations from a re-analysis of the deposited data

How the results depend on the processing

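Of the 14 members higher in KO cells, 13 kept their call in every alternative fit that tested them at an adjusted p of 0.05, the exception being *Pcdhb9* without KO replicate 1. A minimum of 10 counts in every library left 16 members to test, without *Pcdhb3* and *Pcdhb9*, of which 13 were higher. The number of members higher was 13 to 16 over those fits, 13 to 16 when a library was left out, and 3 when the adjusted p had to be under 0.01 and the log2-ratio beyond 2. The number lower, 1 at first (*Pcdhb13*), was 0 under those stricter limits, 0 with library totals, 0 in DESeq2, and 0 to 1 when a library was left out. At an unadjusted p under 0.05, 1 member was lower in edgeR and 0 in DESeq2. *Pcdhb14* passed with library totals and without WT replicate 2, and *Pcdhb7* passed with the upper quartile, library totals, no filter, a minimum of 10 counts in every library and without WT replicate 2.

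Library totals raised the median log2-ratio over all genes to 0.17, against 0.02 with TMM, and gave 6628 genes higher and 3964 lower against 5335 and 5045. The log2 ratio of the beta sum was 1.47 with library totals against 1.32, and that of the gamma sum 0.74 against 0.59, a like shift. Leaving out a library gave 1.22 to 1.39 for the beta sum, 0.53 to 0.65 for the gamma sum and -1.03 to 0.93 for the alpha sum. *Pcdha4* reversed to 0.20 without KO replicate 1 and 0.87 without WT replicate 2 (range -1.002 to 0.87), where its counts of 4 to 14 limit what can be seen.

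The replicate numbers gave no sign of pairing, as the deviations of same-numbered libraries correlated at -0.03 over 15538 genes. With 2 libraries per genotype this is a single contrast, so it cannot show that the samples were unpaired. With the replicate block 14 members were higher and 1 was lower, the same numbers as without it. No group had enough samples for a search for outlying libraries. The results are limited by the pooled isoforms in the alpha and gamma rows and by 2 samples per genotype.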

Other observations

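*3222401L13Rik*, a single-exon gene between the beta and gamma clusters (37815561 to 37818391 on chromosome 18 of mm9), was looked up after its values were seen. It lies 134487 bases beyond the last beta gene and 15597 bases before the gamma row. It had 38 and 51 counts in KO MEFs, against 90 and 112 counts in WT MEFs, so the groups did not overlap (log2-ratio KO/WT -1.23, SE 0.26, edgeR adjusted p = 0.00103). The members on either side of it, *Pcdhb22* and the gamma row, both rose. *Slc25a2*, a mitochondrial ornithine carrier and one of the listed neighbours, had 16 and 11 counts in KO MEFs, against 8 and 4 counts in WT MEFs (log2-ratio KO/WT 1.10, edgeR adjusted p = 0.086).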
